A study of Mus musculus with 36 samples.

Results

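The comparison was between livers of obese mice that breathed ambient particulate matter (PM) and livers of obese mice that breathed filtered air, 3 libraries against 3, among 18 liver libraries and 36 libraries of the whole series. The obese group carried diet-induced obesity (DIO): male wild-type C57BL/6J mice received a high-fat diet for 6 weeks before the exposure and throughout it, and were 14 weeks old when the exposure began. DIOE denotes the DIO mice housed for 4 weeks in a chamber supplied with outdoor city air, and DIOC the DIO mice housed for the same 4 weeks in a chamber with filtered air. The other liver libraries came from mice of the same strain on a normal diet (NDE exposed, NDC filtered air) and from mice with type 1 diabetes induced by streptozotocin, which destroys insulin-producing beta cells (T1DE exposed, T1DC filtered air), 3 libraries in each group. The diabetic mice were also fed a normal diet, so the DIO groups differed from both other states in food as well as in metabolic state. Mice of all groups were male, were 14 weeks old when the exposure began and spent 4 weeks in their chambers. Expression was given as FPKM (fragments per kilobase of transcript, scaled to the size of the library). Of 20098 genes listed, the 10806 that reached 1 FPKM in 3 or more liver libraries were tested.

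The liver receives inhaled material and its soluble components through the circulation. Hepatocytes handle foreign chemicals in steps. Receptors such as the aryl hydrocarbon receptor (AHR), the constitutive androstane receptor (CAR) and the pregnane X receptor (PXR) switch on cytochromes P450. Cytochromes P450 and esterases act on the chemicals directly, and transferases then make the products soluble for export by transporters. Kupffer cells, the resident macrophages of the liver, clear particles and aged red cells from the blood and release cytokines such as interleukin-1 beta. Obesity loads hepatocytes with triglyceride and alters the insulin-controlled programmes of fat and glucose handling, so genes of all these groups were examined.

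The libraries held an estimated 19000000 to 19400000 reads in DIOE and 18350000 to 19200000 reads in DIOC, inferred from the spacing of low FPKM values in genes with a known transcript length. The 8 hepatocyte markers, Alb among them, were all tested, with summed levels of 55235 to 71567 FPKM in DIOE and 53555 to 63280 FPKM in DIOC. One DIOE library carried lung transcripts. The lung secretory gene Scgb1a1 was at 72.7 FPKM in DIOE replicate 1, against 1.58 and 3.84 FPKM in the other DIOE libraries and 2.79 to 4.16 FPKM in DIOC, and the surfactant gene Sftpc was at 26.3 FPKM there, against 1.5 and 1.48 FPKM in the other DIOE libraries and 0.92 to 1.98 FPKM in DIOC. That library also lay farthest out on the leading principal component of the 6 DIO libraries, which carried 34.5% of their variance. DIOC replicate 3 differed in other genes: the biliary keratin gene Krt19 was at 10.2 FPKM there, against 0.29 and 0.42 FPKM in the other DIOC libraries and 0.58 to 1.15 FPKM in DIOE, Muc1 was at 3.13 FPKM, against 0.07 to 0.43 FPKM in the other DIO libraries, and Sftpd was at 4.22 FPKM, against 2.01 FPKM in DIOE replicate 1. Of the 6 libraries, 5 had their closest neighbour among all 18 liver libraries in their own group, the exception being DIOC replicate 2, and correlations of log2 values between DIOE and DIOC libraries (0.983 to 0.992) spanned the same range as those between replicates (0.981 to 0.992).

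No gene passed the test in DIOE against DIOC. With limma on log2(FPKM + 1) and Benjamini-Hochberg adjustment, 0 genes were higher and 0 lower at adjusted p under 0.05 and a fold above 1.5 (percent called 0 of 10806 genes), and the smallest adjusted p was 0.121. At an unadjusted p under 0.05 with the same fold, 33 genes (0.305%) were higher and 118 genes (1.09%) lower in DIOE. That tilt towards lower values depended on scaling. The median log2 fold change over all tested genes was -0.11 as deposited and 0.01 after the libraries were scaled by the median ratio of their genes, and with that scaling 77 genes (0.713%) were higher and 58 genes (0.537%) lower by the same unadjusted rule, again with 0 genes after adjustment. List medians are as deposited, with the value after median-ratio scaling beside them for DIOE against DIOC. Of all genes, 12.5% were lower and 1.33% higher at an unadjusted p under 0.05 as deposited, and 4.46% and 6.8% after that scaling. The 50 most abundant genes took 45.8 to 47.6% of FPKM in DIOE and 43.1 to 45.6% in DIOC, and the part of this in the tilt was not tested.

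Among genes that were higher in DIOE without passing the adjusted threshold, the lowest p belonged to Il1b (Entrez 16176, GRCm38 chromosome 2, 129364569 to 129371164), which encodes the cytokine interleukin-1 beta. Il1b was at 5.39, 9.89 and 10.1 FPKM in DIOE, against 2.19, 3.72 and 2.92 FPKM in DIOC. The lowest DIOE library lay above the highest DIOC library, and the log2 fold change was 1.24 ± 0.24 (standard error, adjusted p = 0.121). Without DIOE replicate 1 the adjusted p of Il1b was 0.0303, and over its 14 alternatives the adjusted p ranged from 0.0303 to 0.310 and the log2 fold change from 1.09 to 1.5. Cebpb, a transcription factor of the acute phase and of liver regeneration, was at 94.6, 71.7 and 81.6 FPKM in DIOE, against 50.6, 41.0 and 43.8 FPKM in DIOC, a log2 fold change of 0.86 ± 0.24 (adjusted p = 0.185). Its groups did not overlap, which the rule for naming these genes required of each of them. Ppp1r3b, which targets a phosphatase to glycogen and favours glycogen synthesis, was at 34.5, 47.6 and 49.3 FPKM in DIOE, against 11.4, 20.3 and 30.6 FPKM in DIOC. G0s2, an inhibitor of the triglyceride lipase of lipid droplets, was at 405, 250.3 and 195.0 FPKM in DIOE, against 105, 194.5 and 92.5 FPKM in DIOC. Serpina6, the plasma carrier of corticosteroids, was at 73.8, 76.9 and 36.3 FPKM in DIOE, against 17.95, 32.8 and 29.9 FPKM in DIOC. The lowest DIOE library of G0s2 and the highest DIOC library nearly met. The other genes of this kind that are named were Igfals (the acid-labile partner of circulating IGF1), Srebf1 (a transcription factor of lipid synthesis), Tsc22d1, and the carboxylesterases Ces1f and Ces3b, with log2 fold changes from 0.60 in Ces3b to 1.07 in Tsc22d1 and adjusted p from 0.222 in Igfals to 0.280 in Srebf1.

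Among genes that were lower in DIOE without passing the adjusted threshold, Clic1, an intracellular chloride channel protein, was at 10.04, 10.2 and 9.35 FPKM in DIOE, against 15.2, 13.9 and 18.3 FPKM in DIOC. Clec1b, a C-type lectin receptor of platelets that Kupffer cells of the mouse also express, was at 6.46, 7.81 and 6.34 FPKM in DIOE, against 12.8, 12.1 and 13.6 FPKM in DIOC. Both genes kept the replicates of each group close together, with log2 fold changes of -0.62 ± 0.12 for Clic1 and -0.82 ± 0.16 for Clec1b (adjusted p = 0.121 for each). Glyctk, a glycerate kinase, was at 63.2, 55.7 and 83.9 FPKM in DIOE, against 147, 111 and 98.5 FPKM in DIOC. Sik1, a kinase induced by cyclic AMP and fasting signals, was at 3.60, 3.31 and 6.01 FPKM in DIOE, against 10.5, 11.1 and 6.82 FPKM in DIOC. The remaining members of this set were the scavenger receptors Cd163 and Msr1, the complement receptor Vsig4, the ubiquitin ligase subunit Wsb1, the acyltransferase Acnat2, the phosphatase subunit Ppp1r15a, Reep4 and Plac9a, with log2 fold changes from -0.91 in Cd163 to -0.64 in Ppp1r15a and adjusted p of 0.185 to 0.186 in Ppp1r15a and Vsig4. Over all genes, 2.5% had every DIOE library above every DIOC library, and 17.9% had every DIOE library below every DIOC library.

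**Figure D1:**
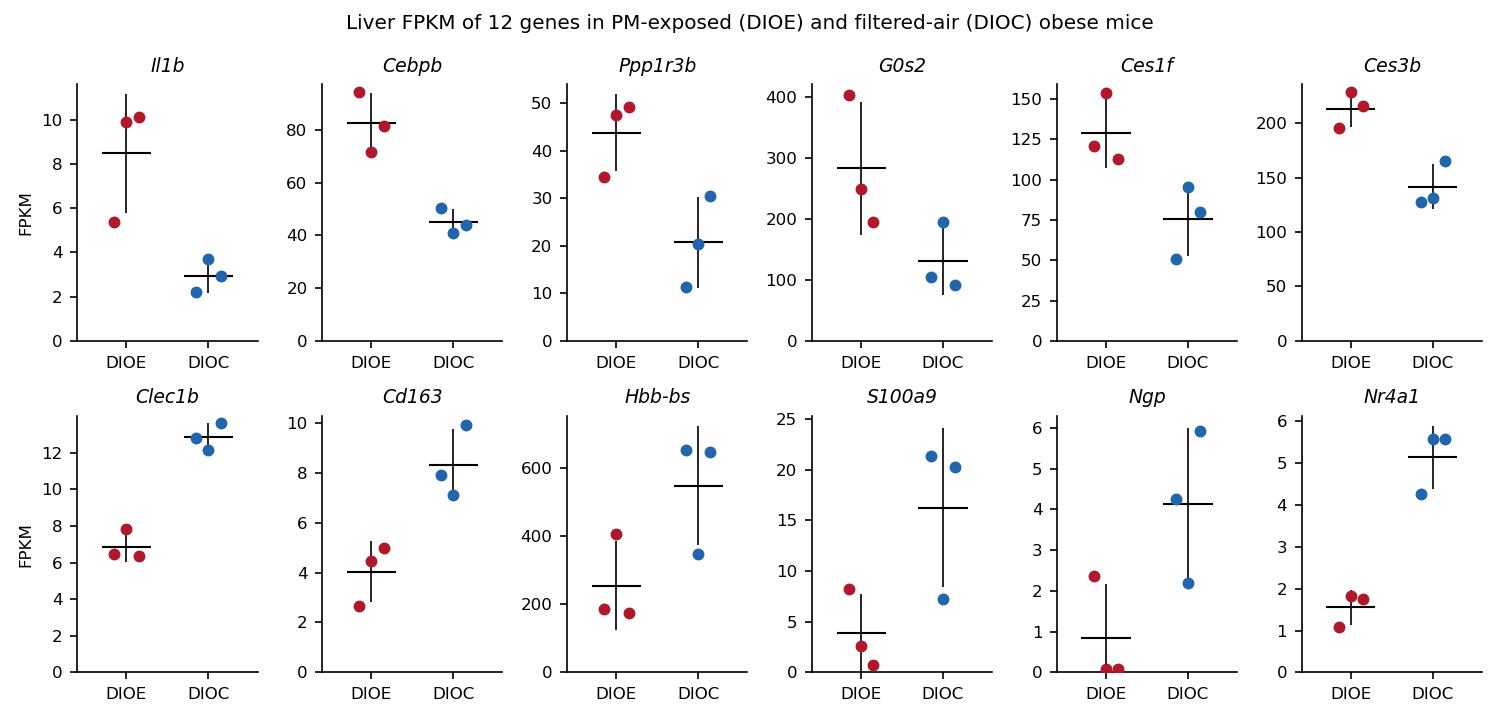
FPKM (linear axes from 0) of 12 genes in each of the 3 DIOE libraries (red, left) and the 3 DIOC libraries (blue, right), with the mean as a horizontal line and 1 SD as a vertical line, ended at 0. The DIOE libraries of Il1b lie between 5.39 and 10.1 FPKM, all above the DIOC libraries, while Hbb-bs, S100a9 and Ngp overlap between groups.

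Markers of blood cells and of liver macrophages stood at the low end of the lists. The largest differences were in red cell and neutrophil genes, and 0 markers of any cell type passed the adjusted threshold. In bulk tissue, fewer cells of a type and less RNA per cell cannot be told apart. Of the 7 tested red cell and erythroid genes, 6 were lower at an unadjusted p under 0.05 (all genes, 12.5%) and 0 higher (all genes, 1.33%), with a list median of -1.10 as deposited and -0.95 after median-ratio scaling. Hbb-bs, an adult beta globin, was at 185, 404 and 173 FPKM in DIOE, against 651, 346 and 644 FPKM in DIOC, a log2 fold change of -1.16 ± 0.35 (adjusted p = 0.202). The groups overlapped: DIOE replicate 2 exceeded DIOC replicate 2. Hba-a2, an alpha globin, overlapped through the same pair of libraries, with 107 to 233 FPKM in DIOE and 214 to 359 FPKM in DIOC, and globin copies are near-identical, so reads may be divided between them. Bpgm, which sets the oxygen affinity of red cells, did not overlap, with 5.78, 7.05 and 7.46 FPKM in DIOE, against 10.6, 9.73 and 10.3 FPKM in DIOC.

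All 8 tested neutrophil markers had a lower mean in DIOE (all genes, 24.4% with a higher mean). Of the 8, 6 were lower at an unadjusted p under 0.05 (all genes, 12.5%). The list median was -1.05 as deposited and -1.02 after median-ratio scaling. S100a9, a calcium-binding protein that neutrophils hold in bulk, was at 8.25, 2.64 and 0.73 FPKM in DIOE, against 21.3, 7.25 and 20.2 FPKM in DIOC. The granule genes were close to 0 in 2 of the DIOE libraries. Ngp was at 2.37, 0.09 and 0.09 FPKM in DIOE, against 4.26, 2.20 and 5.92 FPKM in DIOC, and Camp was at 1.20, 0.19 and 0.00 FPKM in DIOE, against 2.06, 1.21 and 2.22 FPKM in DIOC. DIOE replicate 1, the library with lung transcripts, was the highest of its group in S100a9, Ngp and Camp. Without that library these 3 genes passed the adjusted threshold, with log2 fold changes of -2.65 for S100a9 (adjusted p = 0.0303), -2.16 for Ngp (0.000604) and -1.36 for Camp (0.00119), where the highest adjusted p over their alternatives was 0.398 for each. Without DIOC replicate 2, the lowest of its group, 1 gene passed, Retnlg, a resistin-like gene of neutrophils, at a log2 fold change of -1.46 (adjusted p = 0.0164).

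Each of the 12 Kupffer cell and macrophage markers had a lower mean in DIOE, from -0.91 in Cd163 to -0.47 (all genes, 24.4% with a higher mean). Of the 12, 10 were lower at an unadjusted p under 0.05 (all genes, 12.5%). The list median was -0.56 as deposited and -0.43 after median-ratio scaling, and with that scaling 2 of the 12 remained at an unadjusted p under 0.05 (all genes, 4.46% lower). Clec4f, a lectin restricted to Kupffer cells in the mouse, was at 36.4, 44.3 and 29.3 FPKM in DIOE, against 44.7, 48.5 and 63.1 FPKM in DIOC. The groups of Clec4f were separated by a narrow gap. Cd163, the receptor for haemoglobin bound to haptoglobin, was at 2.66, 4.46 and 4.99 FPKM in DIOE, against 7.92, 7.12 and 9.91 FPKM in DIOC, and C1qc, a chain of the complement starter C1q that macrophages make, was at 43.0, 47.5 and 34.0 FPKM in DIOE, against 54.8, 55.5 and 77.3 FPKM in DIOC. Summed over the 12 markers, the level was 243 to 325 FPKM in DIOE and 377 to 523 FPKM in DIOC, without overlap. DIOC replicate 3 was the highest library in Clec4f, Cd163 and C1qc, and without it the Kupffer median was -0.41. Il1b thus had higher values in the libraries in which macrophage markers had lower ones. The 8 tested monocyte and dendritic cell markers had a median of -0.36 (-0.22 after median-ratio scaling and -0.14 without DIOC replicate 3), with 0 at an unadjusted p under 0.05.

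Sinusoidal endothelial markers gave a different picture once libraries were inspected one by one. The 11 markers had a median of -0.54 (-0.41 after median-ratio scaling), with 2 lower at an unadjusted p under 0.05, near the share of all genes, and 0 after that scaling. Fcgr2b, an Fc receptor by which these cells clear immune complexes, was at 10.8, 34.0 and 29.6 FPKM in DIOE, against 31.9, 34.2 and 39.4 FPKM in DIOC. DIOE replicate 1 was the low library for Fcgr2b, and the other DIOE libraries lay near the DIOC libraries. Clec4g was at 20.1, 47.5 and 35.9 FPKM in DIOE, against 52.0, 45.7 and 51.5 FPKM in DIOC. DIOE replicate 1 was again the lowest, but replicate 3 also lay below every DIOC library. Without DIOE replicate 1 the endothelial median was -0.10, whereas the medians of the red cell, neutrophil and Kupffer lists were -0.92, -1.21 and -0.60. The 6 tested lung epithelium markers had a median of 0.46 with that library and -0.08 without it. Lung transcripts and low endothelial markers therefore occurred in the same library, and the part of one in the other was not tested.

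Hepatocyte markers lay closer to the all-gene median. The 8 general hepatocyte genes had a median of 0.06, the 10 pericentral genes 0.11 and the 10 periportal genes -0.28, against -0.11 over all genes. After median-ratio scaling these medians were 0.20, 0.24 and -0.15, and without DIOE replicate 1 they were 0.04, 0.17 and -0.11. Of the periportal genes, 1 was lower at an unadjusted p under 0.05, Ctsc, a lysosomal peptidase that immune cells also express, at 15.6, 13.2 and 10.98 FPKM in DIOE, against 23.8, 15.9 and 19.4 FPKM in DIOC. Arg1, the urea cycle arginase, was at 590, 570 and 1056 FPKM in DIOE, against 1150, 876 and 951 FPKM in DIOC, with DIOE replicate 3 inside the DIOC range. The stellate cell list, including Dcn and Colec11, had a median of -0.16 (-0.06 after median-ratio scaling), which turned to 0.03 without DIOE replicate 1.

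**Figure D2:**
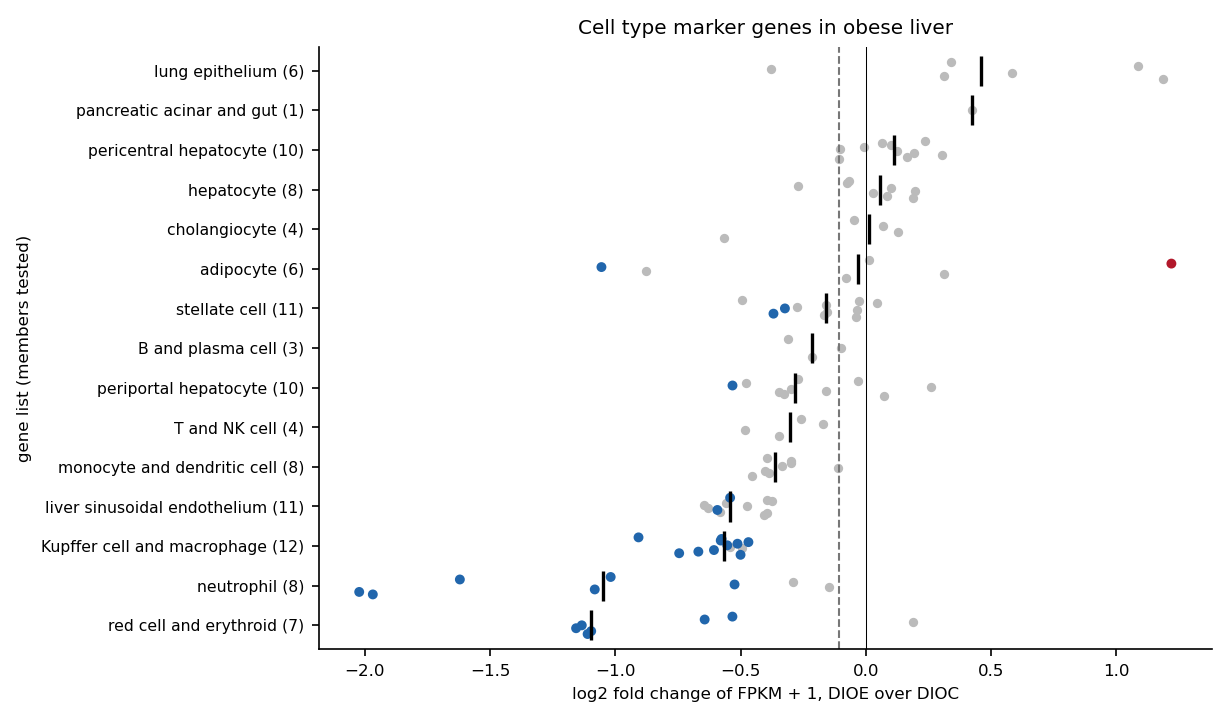
Log2 fold change of FPKM + 1 in DIOE over DIOC (x axis) for each tested member (points) of 15 cell type marker lists (y axis, members tested in parentheses), with the list median as a black bar and the all-gene median of -0.11 as a dashed line; red and blue points had an unadjusted p under 0.05, grey points did not. Red cell (-1.10), neutrophil (-1.05), Kupffer (-0.56) and endothelial (-0.54) medians lie lowest, the last resting on DIOE replicate 1.

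Enzymes that act on foreign chemicals were mostly at or above the all-gene median in DIOE, and 0 of them passed the adjusted threshold. General hepatocyte (0.06) and pericentral (0.11) markers also had medians above the all-gene median of -0.11, so that side was not particular to these enzymes. The carboxylesterases, which hydrolyse ester drugs, pesticides and lipids, had the highest median of the pathway lists. Those lists were chosen with earlier results of these data known. All 12 tested carboxylesterases had a higher mean in DIOE, against 24.4% of all genes. Of the 12, 5 did so at an unadjusted p under 0.05 (all genes, 1.33%). Their median was 0.41 as deposited and 0.55 after median-ratio scaling, with which 7 reached that p (all genes, 6.8%). Ces1f was at 121, 154 and 113 FPKM in DIOE, against 50.6, 95.2 and 80.3 FPKM in DIOC (log2 fold change 0.80 ± 0.29, adjusted p = 0.263), and Ces3b was at 196, 229 and 216 FPKM in DIOE, against 128, 131 and 166 FPKM in DIOC (0.60 ± 0.22, adjusted p = 0.280). Groups without overlap were required by the rule that named Ces1f and Ces3b. Of the 12 members, 4 had every DIOE library above every DIOC library (all genes, 2.5%). Ces1d, which hydrolyses triglyceride in mouse liver, was at 278, 410 and 355 FPKM in DIOE, against 172, 308 and 220 FPKM in DIOC, and Ces1e was at 35.8, 58.4 and 50.9 FPKM in DIOE, against 22.7, 44.2 and 27.9 FPKM in DIOC. In both, DIOC replicate 2 lay within the DIOE range. The Ces1 genes are tandem copies on chromosome 8, so that reads may be divided between them and members are not independent of each other.

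Because the carboxylesterases lay on the same side together, their promoters were searched for 7 motifs on both strands. RefSeq (GRCm38.p6) promoters, 250 bases before to 50 after the gene start, were held for 9 of the 12 tested genes. The D-box TTANGTAA, the element of the clock output factors DBP, TEF and HLF, was present in 4 of the 9 and in 2.38% of all 27025 promoters. The 4 are shown to let the position and the shared flanks of the element be compared, all on the minus strand of chromosome 8, written 5′ to 3′ in the direction of the gene with the D-box matches in capitals. They span chr8:93229570-93229869 for Ces1e, chr8:93131234-93131533 for Ces1c, chr8:93079891-93080190 for Ces1b and chr8:93337160-93337459 for Ces1g.
Ces1e: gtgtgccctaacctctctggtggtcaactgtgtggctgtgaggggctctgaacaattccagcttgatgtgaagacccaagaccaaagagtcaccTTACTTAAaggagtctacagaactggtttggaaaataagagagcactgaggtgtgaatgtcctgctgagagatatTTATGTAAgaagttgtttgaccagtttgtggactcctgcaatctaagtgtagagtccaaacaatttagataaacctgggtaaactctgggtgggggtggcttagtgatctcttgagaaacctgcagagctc
Ces1c: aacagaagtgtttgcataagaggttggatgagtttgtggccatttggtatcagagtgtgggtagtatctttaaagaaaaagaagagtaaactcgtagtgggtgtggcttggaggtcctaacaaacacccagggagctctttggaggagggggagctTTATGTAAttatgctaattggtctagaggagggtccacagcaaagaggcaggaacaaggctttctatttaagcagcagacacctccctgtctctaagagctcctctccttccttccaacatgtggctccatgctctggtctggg
Ces1b: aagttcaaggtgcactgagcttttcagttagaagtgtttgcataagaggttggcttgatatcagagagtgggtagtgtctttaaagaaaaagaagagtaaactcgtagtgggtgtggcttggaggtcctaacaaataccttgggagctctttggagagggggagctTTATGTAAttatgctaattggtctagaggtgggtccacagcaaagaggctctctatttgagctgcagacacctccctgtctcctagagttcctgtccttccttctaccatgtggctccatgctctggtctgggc
Ces1g: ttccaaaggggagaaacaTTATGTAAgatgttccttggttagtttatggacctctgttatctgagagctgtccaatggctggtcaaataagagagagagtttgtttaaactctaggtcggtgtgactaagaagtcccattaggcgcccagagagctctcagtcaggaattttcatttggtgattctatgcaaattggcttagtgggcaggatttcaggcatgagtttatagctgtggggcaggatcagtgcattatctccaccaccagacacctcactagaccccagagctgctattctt

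The Ces1e promoter held 2 matches, and the matches of Ces1c and Ces1b lay at 94 and 84 bases before the start within flanks that these neighbouring copies share. A match is a description of letters, and genes that arose by duplication do not count as separate occurrences. The genes with a match, picked for it after the search, were not those with the clearest differences: Ces1c was at 1381, 1373 and 1200 FPKM in DIOE, against 841, 1223 and 1098 FPKM in DIOC, and Ces1b at 33.3, 39.3 and 35.5 FPKM in DIOE, against 27.2, 35.8 and 30.02 FPKM in DIOC. Ces1g was at 58.0, 62.2 and 44.7 FPKM in DIOE, against 28.0, 52.3 and 49.9 FPKM in DIOC, and of the 4 genes Ces1e alone reached an unadjusted p under 0.05. The other motifs were in 0 to 2 of the 9 promoters: the E-box CACGTG in 0, the xenobiotic response element GCGTG in 0, the heat shock element GAANNTTC in 2, the antioxidant element TGANNNNGC in 2, the sterol element TCACNCCAC in 1 and the interferon element in 0. Of all promoters, 7.09% held the E-box, 32.2% GCGTG, 7.97% GAANNTTC, 41.4% TGANNNNGC, 1.22% TCACNCCAC and 3.52% the interferon element.

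Conjugating enzymes had smaller differences. Of the 10 tested sulfotransferases, 3 were higher at an unadjusted p under 0.05 (all genes, 1.33%) and 0 lower (all genes, 12.5%). Among the 3 was Papss2, which makes the sulfate donor, at 48.6, 45.7 and 45.2 FPKM in DIOE, against 28.3, 38.4 and 34.2 FPKM in DIOC. Of 16 UDP-glucuronosyltransferases 12 had a higher mean (all genes, 24.4%), 1 at an unadjusted p under 0.05. That gene was Ugt2b34, at 141, 149 and 111 FPKM in DIOE, against 78.3, 109 and 110 FPKM in DIOC. The list medians were 0.04 for sulfotransferases (0.13 after median-ratio scaling) and 0.19 for UDP-glucuronosyltransferases (0.34). The 21 glutathione transferases had a median of -0.10 (0.04), near that of all genes, with Gstm6 the 1 member at an unadjusted p under 0.05 (40.6, 46.5 and 31.0 FPKM in DIOE, against 21.5, 29.1 and 30.4 FPKM in DIOC). Among 16 drug and organic ion transporters, Abcc6 was the 1 member at that p, with 18.2, 22.7 and 21.6 FPKM in DIOE, against 14.7, 18.6 and 14.95 FPKM in DIOC.

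None of the 3 receptors that control these enzymes passed the test. Ahr was at 6.40, 5.73 and 7.26 FPKM in DIOE, against 6.76, 5.59 and 5.58 FPKM in DIOC (log2 fold change 0.10 ± 0.16). The groups overlapped throughout, and so did those of Nr1i3, which encodes CAR, at 47.0, 49.0 and 53.1 FPKM in DIOE, against 42.1, 53.1 and 48.5 FPKM in DIOC (0.06 ± 0.14). Nr1i2, which encodes PXR, was at 28.3, 26.2 and 27.7 FPKM in DIOE, against 21.2, 25.6 and 23.1 FPKM in DIOC (0.23 ± 0.13, adjusted p = 0.442), and its groups did not overlap. Of the 8 tested members of the AHR list, 0 reached an unadjusted p under 0.05. The classical target Cyp1a2 was at 188, 268 and 212 FPKM in DIOE, against 179, 203 and 155 FPKM in DIOC, whereas Tiparp, another target, was at 1.20, 1.20 and 1.14 FPKM in DIOE, against 1.82, 1.73 and 1.77 FPKM in DIOC. Both are values that did not pass, and in opposite directions. Of 29 cytochromes P450 and regulators of the CAR and PXR list, 1 reached an unadjusted p under 0.05, Cyp2d10, at 447, 493 and 499 FPKM in DIOE, against 357, 399 and 386 FPKM in DIOC.

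Genes on the study's PCR primer lists for liver were read separately. The study describes its lung pathway genes as representatives of a network drawn from its lung transcriptomes, and its enzymes as key ones. Such genes may not have been chosen independently of this series. Their counts are therefore not taken as independent evidence of a direction. Of the 28 tested xenobiotic enzymes and transporters, 2 were higher at an unadjusted p under 0.05 (all genes, 1.33%) and 0 lower (all genes, 12.5%). The 2 were Aldh2, which oxidises acetaldehyde, and Sult1b1. The median was -0.01 as deposited. After median-ratio scaling it was 0.13, with 5 higher (all genes, 6.8%) and 0 lower (all genes, 4.46%). Of the 23 tested pathway genes, 1 was higher, Il1b (all genes, 1.33%), and 6 were lower (all genes, 12.5%) at that unadjusted p. Among the 6 were Bax, the pro-apoptotic BCL2 relative, the inflammatory caspase Casp1 and Il1r1, the receptor for interleukin-1. The median was -0.18 as deposited. After median-ratio scaling it was -0.05, with 2 higher (all genes, 6.8%) and 5 lower (all genes, 4.46%). Il1r1 was at 4.37, 5.28 and 5.76 FPKM in DIOE, against 15.7, 7.37 and 10.7 FPKM in DIOC. The receptor transcript was thus lower in the libraries in which the ligand transcript was higher, with an adjusted p of 0.264 for Il1r1.

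Lipid and glucose genes had members on both sides. In fatty acid synthesis, 4 of 18 tested genes were higher at an unadjusted p under 0.05 (all genes, 1.33%) and 1 lower (all genes, 12.5%). The median was 0.17 as deposited and 0.31 after median-ratio scaling. Srebf1, the sterol regulatory factor that drives the pathway, was at 9.05, 16.8 and 14.6 FPKM in DIOE, against 7.10, 8.28 and 8.24 FPKM in DIOC. Pklr, the liver pyruvate kinase that feeds carbon into it, was at 24.5, 37.4 and 24.3 FPKM in DIOE, against 18.9, 18.4 and 17.0 FPKM in DIOC. Neither gene overlapped. Fads2, a desaturase, was at 274, 221 and 212 FPKM in DIOE, against 156, 213 and 187 FPKM in DIOC, with 1 DIOC library above the lowest DIOE library. Of 26 genes of cholesterol synthesis and handling, 20 had a higher mean in DIOE (all genes, 24.4%) and 0 reached an unadjusted p under 0.05. The median was 0.11 as deposited and 0.22 after median-ratio scaling, with which 2 were higher at that p (all genes, 6.8%). Insig1, which holds back sterol synthesis when cholesterol is high, was at 15.6, 13.5 and 15.2 FPKM in DIOE, against 8.99, 11.4 and 10.09 FPKM in DIOC.

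Fatty acid oxidation genes had members on both sides as deposited. The list of 33 had a median of 0.00, with 3 members higher at an unadjusted p under 0.05 (all genes, 1.33%) and 2 lower (all genes, 12.5%). After median-ratio scaling the median was 0.15, with 8 higher (all genes, 6.8%) and 1 lower (all genes, 4.46%). Ppara, the receptor that induces the pathway, was at 61.0, 60.9 and 51.5 FPKM in DIOE, against 39.0, 55.2 and 35.7 FPKM in DIOC. Cyp4a14, a fatty acid omega-hydroxylase, and Ehhadh, a peroxisomal oxidation enzyme, are 2 of its targets and had the opposite sign. They do not stand for its targets as a whole, and Acot3 and Angptl4, given below, had the same sign as Ppara. Cyp4a14 was at 1556, 1496 and 1503 FPKM in DIOE, against 1911, 2883 and 2955 FPKM in DIOC, and Ehhadh was at 913, 817 and 668 FPKM in DIOE, against 928, 1520 and 1466 FPKM in DIOC. The highest DIOE library lay below the lowest DIOC library in both, by a small margin in Ehhadh. Acot3, a peroxisomal acyl-CoA thioesterase, was at 26.9, 16.1 and 16.7 FPKM in DIOE, against 4.18, 24.3 and 4.88 FPKM in DIOC, where 1 DIOC library stood far from the other 2.

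In the handling of stored fuel, Pygl, the liver glycogen phosphorylase, was at 91.9, 127 and 105 FPKM in DIOE, against 72.9, 83.4 and 75.8 FPKM in DIOC, on the same side as Ppp1r3b. The glucose production and glycogen list of 23 had a median of 0.09. Of its members, 2 were higher at an unadjusted p under 0.05 (all genes, 1.33%) and 1 lower (all genes, 12.5%). After median-ratio scaling the median was 0.24, with 6 higher (all genes, 6.8%) and 0 lower (all genes, 4.46%). Angptl4, a secreted inhibitor of lipoprotein lipase, was at 109, 133 and 118 FPKM in DIOE, against 70.9, 92.7 and 87.0 FPKM in DIOC. Its groups were separate, unlike those of Fabp4, a fatty acid carrier of adipocytes and macrophages (4.86, 4.30 and 8.99 FPKM in DIOE, against 14.7, 8.32 and 18.02 FPKM in DIOC). Apoa4, an apolipoprotein that follows fat load in mouse liver, was at 540, 193 and 386 FPKM in DIOE, against 1180, 358 and 770 FPKM in DIOC, with wide spread in both groups. Lipc, the hepatic lipase, was at 88.5, 78.8 and 54.7 FPKM in DIOE, against 45.0, 56.7 and 59.5 FPKM in DIOC.

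**Figure D3:**
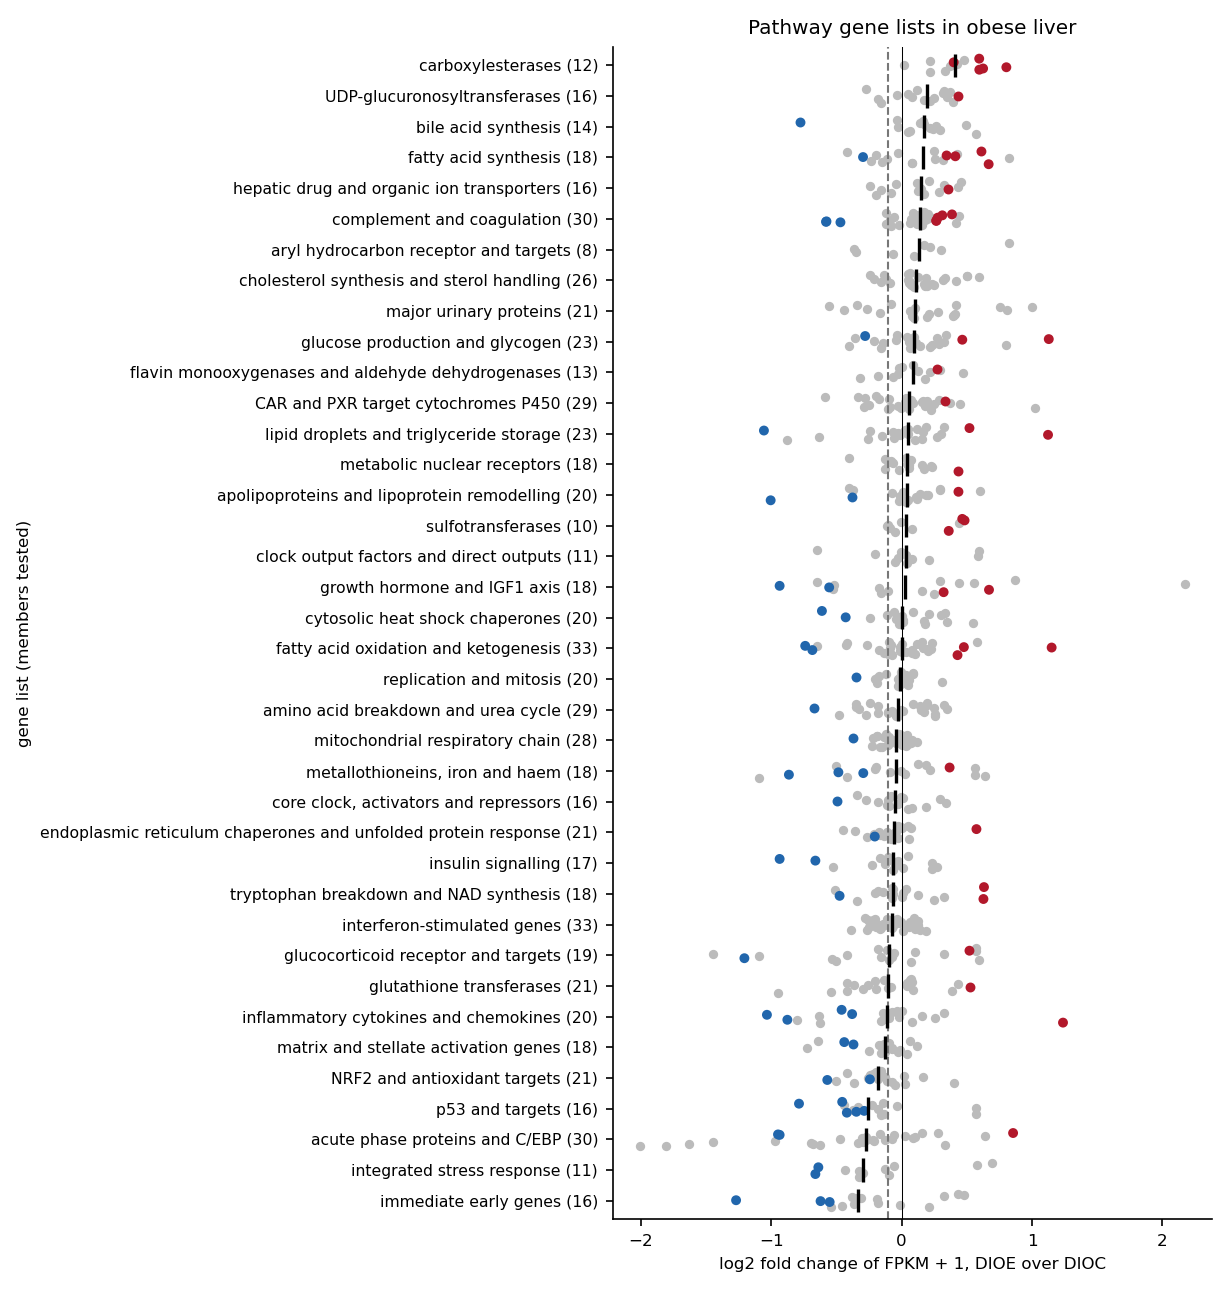
Log2 fold change of FPKM + 1 in DIOE over DIOC (x axis) for each tested member (points) of 38 pathway lists (y axis, members tested in parentheses), with list medians as black bars and the all-gene median of -0.11 as a dashed line; red and blue points had an unadjusted p under 0.05, and 0 points passed after adjustment. The carboxylesterases have the highest median (0.41) and the immediate early genes the lowest (-0.34).

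The immediate early and integrated stress response lists had the lowest medians among the pathway lists. The immediate early genes, which cells induce within minutes of a stimulus, had a median of -0.34 as deposited and -0.22 after median-ratio scaling, with 3 of 16 lower and 0 higher at an unadjusted p under 0.05, against 12.5% of all genes lower. Nr4a1, an orphan nuclear receptor of this class, was at 1.08, 1.83 and 1.76 FPKM in DIOE, against 4.27, 5.57 and 5.57 FPKM in DIOC, a log2 fold change of -1.27 ± 0.40 (adjusted p = 0.227). The groups were far apart relative to their spread. The 11 integrated stress response genes had a median of -0.30 (-0.18 after median-ratio scaling), and 2 were lower at that p, Ppp1r15a (4.59, 5.79 and 5.91 FPKM in DIOE, against 8.80, 10.2 and 8.01 FPKM in DIOC) and Trib3, a pseudokinase that binds AKT (1.99, 1.98 and 2.90 FPKM in DIOE, against 4.43, 4.26 and 3.81 FPKM in DIOC). Of 16 p53 genes, 5 were lower and 0 higher at that p, including Bax (16.4, 17.1 and 14.1 FPKM in DIOE, against 21.1, 21.0 and 22.5 FPKM in DIOC) and the exonuclease Aen (3.16, 3.22 and 3.11 FPKM in DIOE, against 4.88, 4.50 and 4.75 FPKM in DIOC). The p53 median was -0.26 as deposited and -0.13 after median-ratio scaling. With that scaling 2 p53 genes were lower (all genes, 4.46%) and 1 higher (all genes, 6.8%) at that p.

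Zbtb16, a transcription factor induced by glucocorticoids, was at 0.76, 1.14 and 1.25 FPKM in DIOE, against 2.07, 5.77 and 4 FPKM in DIOC. Tfrc, the transferrin receptor that takes up iron, was at 2.23, 1.54 and 2.17 FPKM in DIOE, against 4.27, 4.70 and 4.22 FPKM in DIOC, and Ftl1, the light chain of the iron store ferritin, was at 2856, 2877 and 3517 FPKM in DIOE, against 4007, 4586 and 4308 FPKM in DIOC. Neither gene overlapped between groups (adjusted p = 0.243 for both Tfrc and Ftl1), while the 18 metallothionein, iron and haem genes as a list had a median of -0.05 (0.10 after median-ratio scaling). Srxn1, which restores oxidised peroxiredoxins, was at 20.8, 16.7 and 20.3 FPKM in DIOE, against 28.4, 30.6 and 28.0 FPKM in DIOC. The 21 NRF2 and antioxidant genes had a median of -0.18 as deposited and -0.04 after median-ratio scaling. Of its members Srxn1 and Gsr alone reached an unadjusted p under 0.05 as deposited, both lower (all genes, 12.5% lower). Hspe1, the mitochondrial co-chaperonin, was at 113, 103 and 88.7 FPKM in DIOE, against 129, 129 and 153 FPKM in DIOC, and Cycs, cytochrome c, was at 41.6, 44.8 and 43.0 FPKM in DIOE, against 51.6, 53.9 and 63.5 FPKM in DIOC. Herpud1, which serves the degradation of misfolded proteins at the endoplasmic reticulum, went the other way, with 159, 183 and 175 FPKM in DIOE, against 96.9, 122 and 129 FPKM in DIOC.

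Among cytokine and acute phase genes, Il1b and Cebpb were those higher at an unadjusted p under 0.05 as deposited. Of 20 tested cytokines and chemokines, 1 was higher at that p, Il1b (all genes, 1.33%), and 4 were lower (all genes, 12.5%), with a median of -0.11. After median-ratio scaling 3 were higher (all genes, 6.8%) and 3 lower (all genes, 4.46%), with a median of 0.00. The chemokine Ccl6, which myeloid cells of the mouse release, was at 11.8, 12.7 and 6.95 FPKM in DIOE, against 21.9, 14.1 and 24.1 FPKM in DIOC. Of 30 acute phase genes, 1 was higher at that p, Cebpb (all genes, 1.33%), and 2 were lower, Il1r1 and Socs3 (all genes, 12.5%). Individual libraries varied widely: Socs3, the feedback inhibitor of cytokine signalling, was at 3.61, 1.75 and 1.61 FPKM in DIOE, against 12.3, 3.98 and 2.49 FPKM in DIOC. Replicate 1 was the highest library of each group for Socs3. Of the 30 acute phase genes, 22 had a lower mean in DIOE and 8 a higher one (all genes, 24.4% with a higher mean). Their median was -0.27 (-0.12 after median-ratio scaling), and leaving out 1 library gave medians from -0.58 to 0.11. None of the 33 tested interferon-stimulated genes reached an unadjusted p under 0.05, and their median was -0.07 (0.04 after median-ratio scaling). Among 16 core clock genes 1 was lower at that p, Nr1d1, a repressor of the loop, at 9.91, 7.01 and 9.91 FPKM in DIOE, against 11.2, 17.0 and 11.2 FPKM in DIOC. Of 30 complement and coagulation genes, 5 were higher at that p (all genes, 1.33%). Among the 5 was F7, coagulation factor VII (43.5, 38.7 and 37.4 FPKM in DIOE, against 33.7, 32.4 and 31.9 FPKM in DIOC). The 3 that were lower (all genes, 12.5%) were the C1q chains also counted as macrophage markers. That list had a median of 0.14. After median-ratio scaling its median was 0.28, with 11 higher (all genes, 6.8%) and 0 lower (all genes, 4.46%).

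Whether the PM effect in obese liver differed from that in normal-diet liver was tested by the difference of the 2 effects, (DIOE minus DIOC) minus (NDE minus NDC). With limma 0 genes were called in either direction (percent called 0), the smallest adjusted p was 0.828, and 32 genes (0.296%) were higher and 116 genes (1.07%) lower by the unadjusted rule with the fold threshold. Without DIOE replicate 1, 0 genes were called higher and 2 lower. Within normal-diet liver 1 gene was called (0.00925%). Among the genes with the smallest p for this difference were Ugcg, Hsf2, Dgcr8 and Bpgm. Ugcg, which makes glucosylceramide, had log2 fold changes of -0.36 in DIO and 0.46 in ND, and Hsf2, a heat shock factor, of 0.00 in DIO and 0.67 in ND. The red cell list had a median of -1.10 in DIO and 0.20 in ND, and the neutrophil list -1.05 in DIO and 0.00 in ND. The Kupffer list had a median of -0.56 in DIO and -0.48 in ND. These medians are set side by side, and 0 genes of the 3 lists were called for the difference.

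The same difference against type 1 diabetic liver, (DIOE minus DIOC) minus (T1DE minus T1DC), was called in 36 genes (0.333%) with limma, 7 higher (0.0648%) and 29 lower (0.268%). The 2 comparisons share no library, and the 2 states differed in food as well, which cannot be told apart from the disease state here. After median-ratio scaling the split was 11 higher (0.102%) and 5 lower (0.0463%). Counts also varied with single libraries, from 1 higher and 2 lower without T1DE replicate 3 to 12 higher and 102 lower without T1DC replicate 3. Without T1DC replicate 2, which lay apart from the other diabetic libraries, 5 genes were higher and 9 lower. In diabetic liver itself 68 genes (0.629%) were higher and 31 genes (0.287%) lower in T1DE. Of the 36 genes, 22 were also called there and 0 were called in DIO liver, 30 had effects of opposite sign, and 30 had the larger absolute effect in diabetic liver.

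The gene with the smallest p was 8430408G22Rik, for which RefSeq gives the symbol Depp1. It was at 74.0, 109 and 60.4 FPKM in DIOE, against 56.6, 49.7 and 56.4 FPKM in DIOC, and at 11.4, 6.64 and 9.01 FPKM in T1DE, against 49.6, 58.6 and 50.1 FPKM in T1DC. The diabetic exposed libraries stood far below all others, and the difference of effects was 2.98 ± 0.32 on the log2 scale (adjusted p = 0.000761). Cebpb differed by 2.16 ± 0.35 (adjusted p = 0.0204), with the DIO values given above and 30.8, 26.8 and 27.7 FPKM in T1DE, against 66.9, 44.3 and 123 FPKM in T1DC. Pim3, a serine/threonine kinase, was at 45.2, 55.3 and 59.2 FPKM in DIOE, against 29.1, 45.6 and 28.3 FPKM in DIOC, and at 17.2, 17.5 and 19.7 FPKM in T1DE, against 58.0, 40.6 and 95.9 FPKM in T1DC, a difference of 2.34 ± 0.41 (adjusted p = 0.0309). Ip6k2, an inositol phosphate kinase, differed by 1.92 ± 0.34 (adjusted p = 0.0309).

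On the lower side, Ddit3, the stress-induced factor CHOP, was at 5.00, 6.08 and 4.91 FPKM in DIOE, against 5.97, 6.46 and 4.87 FPKM in DIOC, and at 23.1, 14.7 and 23.5 FPKM in T1DE, against 5.30, 5.45 and 4.23 FPKM in T1DC. Only the exposed diabetic libraries were high, and the difference of effects was -1.91 ± 0.24 (adjusted p = 0.00380). Rcan1, an inhibitor of calcineurin, had the same form, with 7.94, 8.43 and 7.90 FPKM in DIOE, against 8.32, 8.70 and 10.7 FPKM in DIOC, and 38.9, 35.9 and 48.0 FPKM in T1DE, against 13.8, 11.4 and 17.1 FPKM in T1DC (-1.65 ± 0.23, adjusted p = 0.00579). Mis12 of the kinetochore and Iffo2 completed the set named by p, at -0.81 ± 0.12 and -1.10 ± 0.18. Dnajb1 and Dnajb4, co-chaperones of HSP70, Zfand2a, an arsenite-inducible protein, and Per2, a repressor of the clock, were, like Pim3 and Ip6k2, singled out from the called genes after their values were seen. Dnajb1 was at 9.22, 8.42 and 7.33 FPKM in DIOE, against 6.47, 10.6 and 8.03 FPKM in DIOC, and at 15.8, 18.3 and 26.0 FPKM in T1DE, against 6.34, 7.71 and 6.51 FPKM in T1DC. The DIO groups overlapped and the diabetic groups did not. Of the 20 tested cytosolic chaperones, 14 had a lower effect in DIO than in T1D at an unadjusted p under 0.05 (all genes, 16%), 1 of them called, and the list median as deposited was 0.01 in DIO (0.15 after median-ratio scaling) and 0.55 in T1D. No heat shock element GAANNTTC was found in the promoter windows held for 26 of the 29 lower genes, Dnajb1, Dnajb4 and Zfand2a included, which says only that these letters are not in those windows.

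**Figure D4:**
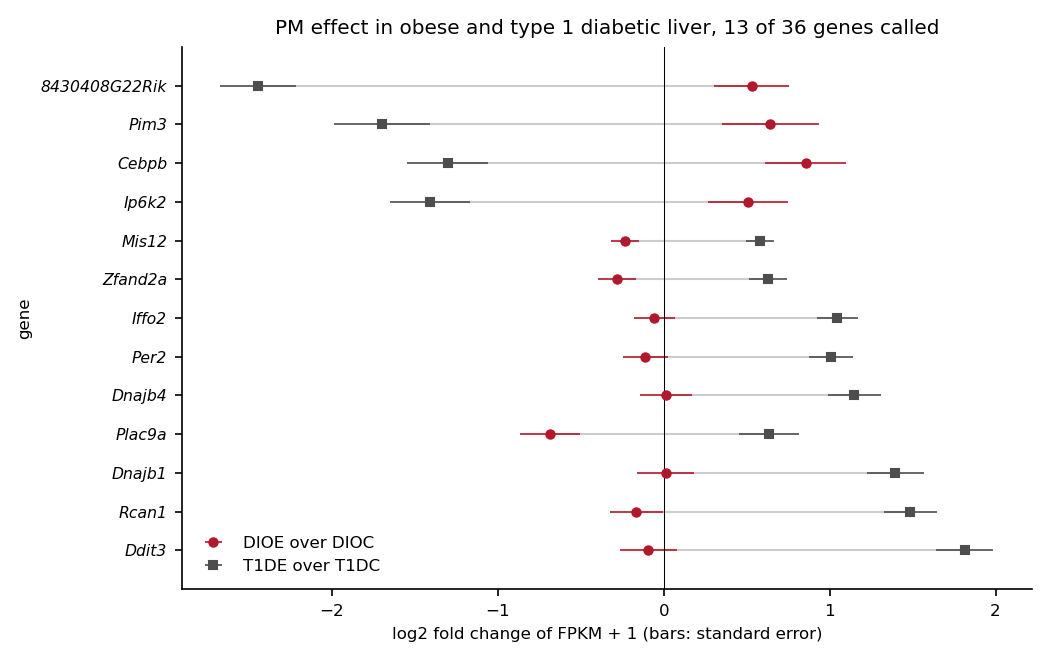
Log2 fold change of FPKM + 1 by PM (x axis, bars 1 standard error) in DIO liver (red circles) and type 1 diabetic liver (grey squares) for 13 of the 36 genes called for the difference of effects (y axis), those named in the text. The DIO effects run from -0.69 in Plac9a to 0.86 in Cebpb, while the diabetic effects reach -2.45 in 8430408G22Rik and 1.81 in Ddit3.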

How the data were processed

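Livers of male C57BL/6J mice were sequenced after poly(A) selection on a BGISEQ-500 instrument. Per the study's methods and the labels, the authors filtered reads with SOAPnuke, aligned them to GRCm38 with Bowtie2, estimated abundance with RSEM and deposited FPKM values to 2 decimals, 1 table per library; the sources used here do not give tool versions. FPKM carry no counts, so a count model was not used and depth was estimated from the spacing of low values. Lung libraries were not used here.

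FPKM were transformed as log2(FPKM + 1); fold changes are on this scale, which understates changes of low genes. Genes that reached 1 FPKM in 3 or more of the 18 liver libraries were tested with limma 3.58.1 in R 4.3.3 (6 group means, moderated statistics with a trend, two-sided, Benjamini-Hochberg over 10806 genes); a gene was called at adjusted p under 0.05 and a fold of FPKM + 1 above 1.5. The analysis was tested on simulated data. Standard errors come from this fit. The labels number 3 replicates per group and name no animals, cages or batches, so p-values measure the spread between these libraries, which may be technical in part. Members of lists and the lists themselves were chosen with earlier results of these data known, and lists were described by counts and medians without a test. Genes were named by a rule: called genes with the largest change (12 per direction), filled with uncalled genes of unadjusted p under 0.05, fold above 1.5, separated groups and a mean of 5 FPKM or more, then up to 4 per list by p, the study's PCR genes, and 6 per difference of effects. Of 902 list symbols, 2 were not matched. Some genes that met the rule are not reported here. Figures used matplotlib 3.10.9.

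Alternatives were another pseudocount, 2 other filters, median-ratio and quantile scaling, the compared groups alone, replicate numbers as a block, other call thresholds, a robust spread estimate, and leaving out each library.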

Additional observations from a re-analysis of the deposited data

Results flagged for a closer look

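Effects of PM that differed between obese and type 1 diabetic liver, by the test of the difference of effects, were 7 genes higher and 29 lower in DIO. Those named, with the log2 PM effect in DIO minus that in T1D, were 8430408G22Rik (2.98), Pim3 (2.34), Cebpb (2.16) and Ip6k2 (1.92) on the higher side, and Ddit3 (-1.91), Rcan1 (-1.65), Dnajb1 (-1.38), Plac9a (-1.32), Dnajb4 (-1.14), Per2 (-1.12), Iffo2 (-1.10), Zfand2a (-0.91) and Mis12 (-0.81) on the lower side. 8430408G22Rik, Ddit3 and Rcan1 stayed called under all 20 alternatives run for each, with adjusted p up to 0.00515, 0.0201 and 0.0290. Of the others, Mis12 was called under 19 of 20, Cebpb under 15, Pim3 under 14, Iffo2 under 12, Ip6k2 under 11, Dnajb1 under 10, Zfand2a under 9, Plac9a under 7 and Dnajb4 under 5 of 20, and Per2 under 12 of 19.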

How the results depend on the processing

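In DIOE against DIOC, and in the difference from normal-diet liver, 0 genes were called under the other pseudocount, both filters, both scalings, the compared groups alone, the block and the robust estimate. Dropping the adjustment gave 33 higher and 118 lower in DIO, and 32 and 116 for the difference. Leaving out 1 library gave 0 to 1 higher and 0 to 3 lower in DIO, and 0 to 2 lower for that difference. The difference from type 1 diabetic liver (7 higher, 29 lower) moved more. It gave 6 and 19 with pseudocount 0.1, 5 and 19 without a filter, 6 and 13 with the filter at 5 FPKM, 11 and 5 with median-ratio scaling, 8 and 3 with quantile scaling, 3 and 6 with the compared groups alone, and 70 and 474 without adjustment. Leaving out 1 library gave 1 to 12 higher and 2 to 102 lower: without DIOE replicates 1, 2 and 3, 5 and 16, 2 and 4, and 2 and 8; without DIOC replicates 1, 2 and 3, 10 and 52, 3 and 4, and 1 and 5; without T1DE replicates 1, 2 and 3, 2 and 6, 2 and 5, and 1 and 2; without T1DC replicates 1, 2 and 3, 6 and 14, 5 and 9, and 12 and 102. The cause was not tested.

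The study matched mice by body weight into pairs before dividing them, but the labels do not say whether replicate numbers follow such pairs. Same-numbered DIOE and DIOC libraries deviated together with correlations of 0.19, 0.21 and -0.27, and not every library correlated best with its own number. So few libraries cannot show whether the numbers pair them. With the number as a replicate block, 3 genes were higher and 12 lower for the difference from type 1 diabetic liver.

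Signs of small DIOE effects turned for Ddit3 (0.031 with median-ratio and 0.022 with quantile scaling), Iffo2 (0.044 and 0.093) and Per2 (0.017 with quantile scaling). Leaving out 1 library gave ranges that crossed 0 for Nr1i3 (-0.032 to 0.13), Hsf2 (-0.091 to 0.089), Dnajb1 (-0.14 to 0.18), Dnajb4 (-0.20 to 0.19), Iffo2 (-0.14 to 0.020) and Scgb1a1 (-0.37, without DIOE replicate 1, to 2.04).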
